A study of Homo sapiens with 8 samples.

Results

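The immediate early genes ARC, FOS, FOSB, FOSL1, JUN, JUNB, EGR1, EGR3, ATF3 and IER2 were followed through every library. They were picked by gene symbol, and all 10 were found among the 28265 genes counted. ARC was chosen because its read count in these libraries was among those that went up most between control and 3 days of treatment. The other 9 were listed with it as genes of the same class, with earlier results of these data known.

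Immediate early genes are switched on within minutes of a signal such as serum, a growth factor or stress, from promoters that already carry the factors they need, and without new protein synthesis. Many encode transcription factors: FOS and JUN proteins pair through leucine zippers to form the AP-1 complex, ATF3 is a zipper protein of the ATF/CREB family that can join them, and EGR proteins bind GC-rich promoters through zinc fingers. ARC is best known from neurons, where its transcript follows synaptic activity and its protein shapes glutamate receptor traffic. In fibroblasts these genes are the classical readout of serum and mitogen signalling, with serum response factor and CREB among the factors at their promoters.

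Nascent RNA was isolated by the factory RNA-Seq approach from IMR90 cells, a line of human foetal lung fibroblasts, and the labels add poly(A) selection. There were 8 libraries, 2 in each of 4 conditions: control cells (titled young, with no vehicle named in the labels), cells given inflachromene (ICM, a small molecule that binds HMGB1 and HMGB2) for 3 days, cells given it for 6 days, and a condition labelled MetaICM, a name that neither the labels nor the text of the study explain. ICM was used at 10 µM in the cultures described, and the library labels carry no dose. No label says that the 2 libraries of a condition came from separate cultures, so p-values measure only the spread between these libraries, which may be technical.

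The libraries held 12095123 to 23166405 counts in genes, with a median of 18642270, and the shallowest was control replicate 2. The summed level of 9 fibroblast markers was 54000 to 60600 CPM (counts scaled to library size) in control, 26100 to 27700 CPM at 3 days, 21000 to 21100 CPM at 6 days and 34800 to 37700 CPM in MetaICM, with none of the 9 at 0. The matrix gene FN1 was the largest part, at 10100 to 38100 CPM over all libraries. The 9 did not shift alike, and COL3A1 ran only from 2430 to 3200 CPM. The summed level of 4 leukocyte markers ran from 4.34 to 6.19 CPM in control and from 13.2 to 21.4 CPM in the other conditions. CD68, a lysosomal protein not confined to leukocytes, made up nearly all of that sum, at 4.18 to 20.7 CPM, while PTPRC reached at most 1.29 CPM, CD79A at most 0.531 CPM, and CD3E, which defines T cells, was at 0 in every library. The part of these shifts in the results that follow was not tested. In such bulk libraries, fewer cells of a kind and less RNA per cell cannot be told apart.

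The stretches just upstream of the start site are shown for the 7 genes whose RefSeq promoter windows were used, because factors that bind short motifs there are what this class of genes is known for. Each runs from 150 to 21 bases before the start, 5′ to 3′ on the strand of the gene, in GRCh38.p14. Capitals mark 5 motifs on either strand: the CArG box, known as the site of serum response factor, TGACG, the core of a cyclic AMP response element, TGACTCA, the AP-1 site, TGACATCA, a relative of both, and TATAAA. None of the 5 overlaps another in these stretches. ATF3 is shown at the first of its 2 start sites, and FOSL1, ARC and EGR3 are named only.

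EGR1 (chr5:138465329-138465458, plus strand): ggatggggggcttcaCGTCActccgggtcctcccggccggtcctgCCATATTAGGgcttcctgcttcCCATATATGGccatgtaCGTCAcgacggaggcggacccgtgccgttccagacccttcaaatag
FOS (chr14:75278678-75278807, plus strand): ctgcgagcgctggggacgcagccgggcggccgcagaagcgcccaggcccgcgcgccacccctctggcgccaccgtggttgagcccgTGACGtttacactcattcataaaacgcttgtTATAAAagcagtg
FOSB (chr19:45467846-45467975, plus strand): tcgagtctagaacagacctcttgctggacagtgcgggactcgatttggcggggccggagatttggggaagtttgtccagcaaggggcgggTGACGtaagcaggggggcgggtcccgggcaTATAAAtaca
JUN (chr1:58784068-58784197, minus strand): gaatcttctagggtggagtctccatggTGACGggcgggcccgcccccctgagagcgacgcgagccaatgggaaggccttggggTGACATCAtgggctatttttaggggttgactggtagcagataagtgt
JUNB (chr19:12791336-12791465, plus strand): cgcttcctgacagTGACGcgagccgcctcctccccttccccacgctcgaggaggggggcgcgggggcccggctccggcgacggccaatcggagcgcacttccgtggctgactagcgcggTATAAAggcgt
ATF3 (chr1:212565257-212565386, plus strand): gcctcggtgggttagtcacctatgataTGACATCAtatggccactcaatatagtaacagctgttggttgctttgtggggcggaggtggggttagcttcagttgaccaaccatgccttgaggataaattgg
IER2 (chr19:13150261-13150390, plus strand): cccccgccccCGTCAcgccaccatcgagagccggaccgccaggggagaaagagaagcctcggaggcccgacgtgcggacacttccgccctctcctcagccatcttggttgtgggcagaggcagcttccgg

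In the full windows, from 250 bases before to 50 after the start, TGACG was present in 6 of the 7 genes, EGR1, FOS, FOSB, IER2, JUN and JUNB, against 24.6% of all 35116 RefSeq promoter windows. TATAAA was found in 4, FOS, FOSB, JUNB and, at its other start site, ATF3, against 11.5% of windows. In FOS, FOSB and JUNB it began 33, 30 and 31 bases before the start. TGACATCA was held by JUN and ATF3, against 2.61% of windows. EGR1 held 2 CArG boxes, a motif in 1.29% of windows, and TGACTCA was in none of the 7 and in 4.95% of windows. The motifs were chosen from what is known of this class, and a match of letters is a description and not a bound site.

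The genes are also short. Their spans in GRCh37, the build of the count tables, ran from 1830 bp for JUNB to 55444 bp for ATF3, with a median of 4163 bp against 22854 bp over 19462 genes with at least 10 counts. JUN and JUNB are single-exon genes, and the median number of exon blocks was 3.5 against 8 over all those genes. None of the 10 shared an exon base with another gene on either strand. Reads from introns of other genes, or from transcription running past their ends, were not checked for. Exon counts do not tell mature from nascent RNA for any of the 10, so mature RNA may enter every level given here.

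**Figure D1:**
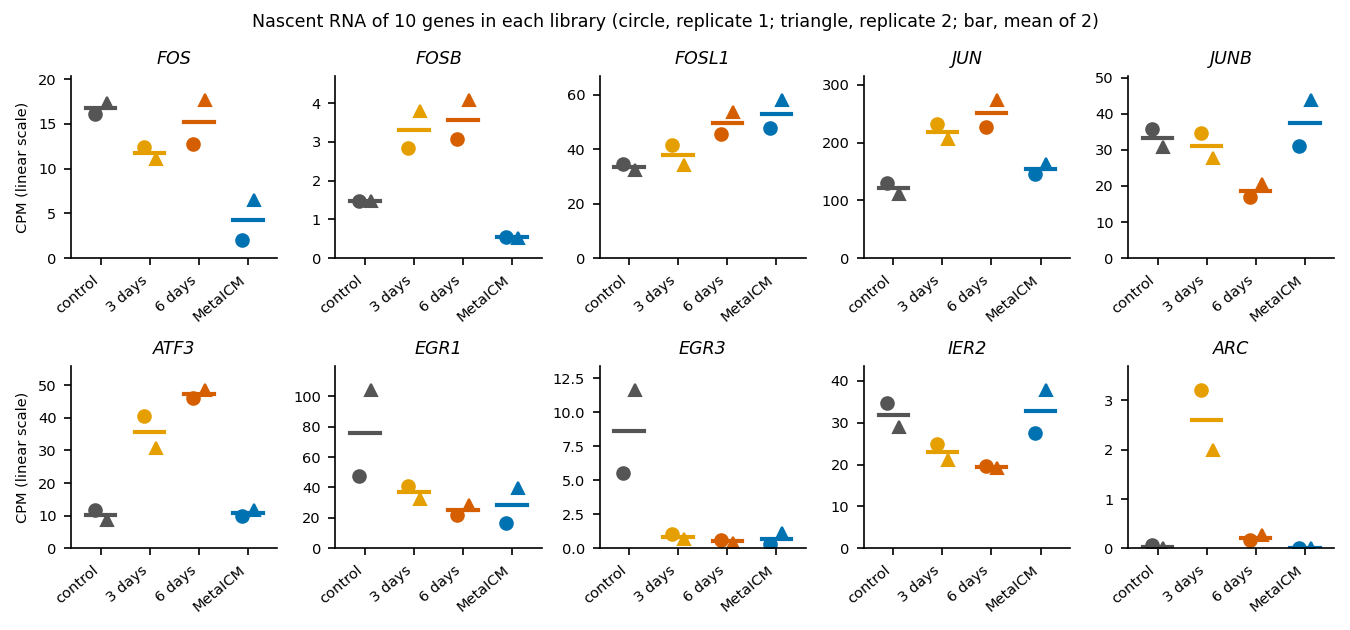
Level of each gene in CPM (linear vertical axes, one scale per gene) in the 4 conditions, with replicate 1 as a circle, replicate 2 as a triangle and the mean of the 2 as a bar. JUN, FOSB and ATF3 sit above control at 3 and 6 days, EGR1 and EGR3 sit below it, and ARC stands out at 3 days.

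Within control cells the levels per exon length (RPKM, from CPM and the exon length in the tables) spanned a wide range. JUN was the highest, at 37.2 ± 4.13 RPKM (mean ± SD, n = 2), ahead of EGR1 (24.2 ± 12.7), FOSL1 (18.2 ± 0.955), JUNB (18.2 ± 1.94) and IER2 (15.1 ± 1.92). EGR1, FOSL1 and JUNB overlapped their neighbours in this order, whereas FOS (7.96 ± 0.416), ATF3 (4.26 ± 0.885), EGR3 (1.84 ± 0.926), FOSB (0.392 ± 0.00252) and ARC (0.0101 ± 0.0143) stood apart from the next gene in both libraries. JUN stayed at the top and FOSL1 came next in each of the treated conditions. ATF3 had rank 7 in control, rank 4 at 3 days, rank 3 at 6 days, where it overlapped no neighbour, and rank 6 in MetaICM. At 3 days ARC (0.882 ± 0.291 RPKM) lay beside FOSB (0.877 ± 0.178 RPKM), with overlapping libraries.

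Changes were tested for the 9 genes other than ARC, and a gene was called when edgeR's quasi-likelihood test gave a Benjamini-Hochberg adjusted p under 0.05 over all genes and the absolute log2 fold change (log2FC) was over 0.6. After 6 days of ICM, FOSB, JUN and ATF3 rose against control and JUNB, EGR1, EGR3 and IER2 fell, which is 3 and 4 of 9 beside 13.3% of all genes called higher and 17.2% called lower. From 3 to 6 days JUNB fell and no other was called, beside 3.53% called higher and 4.54% called lower among all genes. In MetaICM against control FOSL1 rose and FOS, FOSB, EGR1 and EGR3 fell, beside 7.41% and 8.99% of all genes. FOS, FOSB and ATF3 were lower in MetaICM than at 3 days and none was called higher, beside 10.3% of all genes lower and 13.1% higher. Against 6 days of ICM, FOS, FOSB, JUN and ATF3 were lower in MetaICM and JUNB and IER2 were higher, beside 12.0% and 15.7% of all genes.

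The comparison of 3 days with control is the one ARC was picked on, so its values are descriptive. FOSB, JUN and ATF3 passed the same cut-offs upwards and EGR1 and EGR3 downwards, beside 8.85% of all genes upwards and 13.2% downwards, and nothing is read from these counts. The control libraries enter all comparisons with control, so these are not independent of each other.

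**Figure D2:**
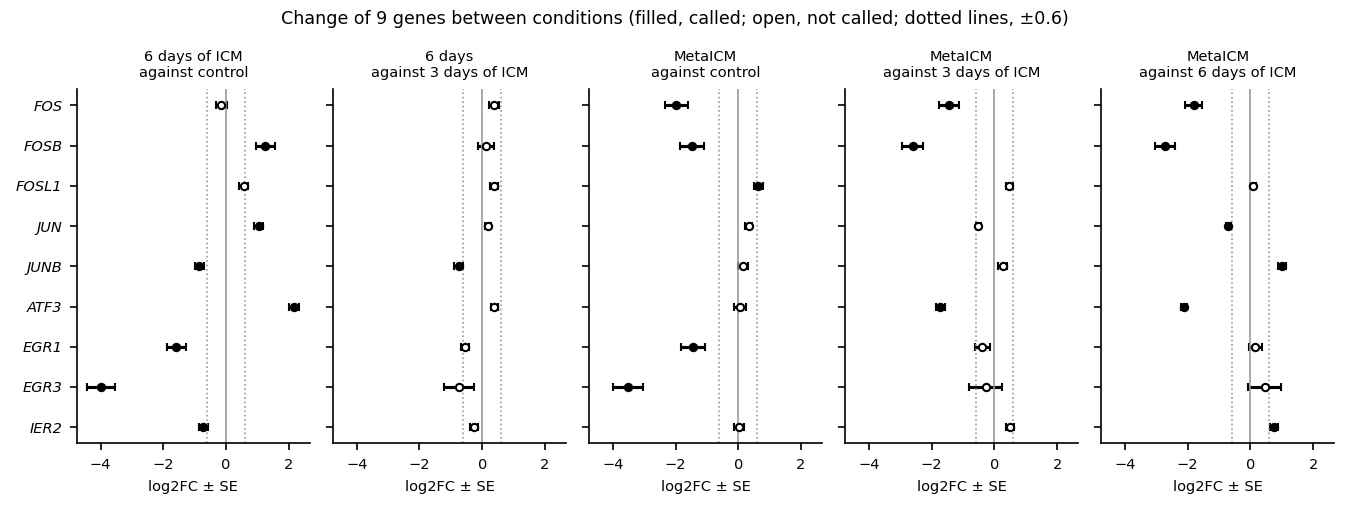
Log2FC (horizontal axis, first condition over the other) with its standard error for 9 genes in 5 comparisons, filled where called and open where not. The comparison of 3 days with control, on which ARC was picked, is left out. The 9 were listed with earlier results of these data known. At 6 days the genes lie on both sides of 0, from -3.98 for EGR3 to 2.18 for ATF3, while the largest differences of MetaICM from both ICM time points are those of FOSB, ATF3 and FOS on the lower side.

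Among the FOS family, FOS itself (chromosome 14 from 75745531 to 75748933, plus strand, 4 exon blocks), the founding AP-1 partner of JUN, gave 16.1 and 17.4 CPM in control, 12.4 and 11.0 CPM at 3 days, 12.7 and 17.7 CPM at 6 days and 2.03 and 6.47 CPM in MetaICM. Both MetaICM libraries were below all 6 others, although they differed from each other 3.18-fold, a gap that only EGR3 exceeded in that condition. FOS fell in MetaICM against control (log2FC -1.97 ± 0.356 SE, adjusted p = 0.00394 by edgeR), and the log2FC was -3.03 without MetaICM replicate 2 and -1.36 without replicate 1. Against 6 days the log2FC was -1.81 ± 0.266 (edgeR adjusted p = 6.95e-06) and against 3 days -1.44 ± 0.315 (edgeR adjusted p = 0.00203). These last calls were lost with DESeq2, at an adjusted p of 0.0503 and 0.131. At 6 days against control FOS was not called (log2FC -0.15, edgeR adjusted p = 0.543), and against 3 days it was called only without 6-day replicate 1 (log2FC 0.60, adjusted p = 0.0349).

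FOSB (chromosome 19 from 45971254 to 45978437, plus strand) encodes a FOS relative that heterodimerises with JUN proteins. It was expressed at a few CPM: 1.49 and 1.47 in control, 2.84 and 3.79 at 3 days, 3.07 and 4.09 at 6 days, and 0.546 and 0.525 in MetaICM, from 11 and 12 counts. Every ICM library was above both control libraries and every MetaICM library was below them. FOSB rose 2.39-fold at 6 days (log2FC 1.26 ± 0.3, edgeR adjusted p = 0.00707), a call lost without 6-day replicate 2 (adjusted p = 0.0911). It was the gene of the 9 with the lowest log2FC in MetaICM against both 3 days (-2.60 ± 0.342, edgeR adjusted p = 2.79e-05) and 6 days (-2.74 ± 0.32, edgeR adjusted p = 3.22e-07). Its fall against control (log2FC -1.47 ± 0.396, edgeR adjusted p = 0.0214) was lost with DESeq2 (adjusted p = 0.0996) and without either MetaICM library.

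FOSL1 (chromosome 11 from 65659520 to 65667997, minus strand), which encodes FRA-1, a FOS protein without the strong activation domain of FOS, went the other way in MetaICM. Its levels were 34.8 and 32.3 CPM in control, 41.7 and 34.3 CPM at 3 days, 45.7 and 53.9 CPM at 6 days and 47.8 and 58.2 CPM in MetaICM. The 6-day and MetaICM libraries were above all control and 3-day libraries and overlapped each other. FOSL1 rose in MetaICM against control by a log2FC of 0.64 ± 0.132 (edgeR adjusted p = 0.00672), close to the cut-off, and was not called without MetaICM replicate 2 (log2FC 0.51, adjusted p = 0.165). At 6 days its log2FC of 0.56 (edgeR adjusted p = 0.00694) missed only the fold cut-off, and passed it without 6-day replicate 1 (0.68) or with library totals in place of TMM (0.60). Against 3 days the MetaICM log2FC of 0.47 (edgeR adjusted p = 0.00409) likewise passed the fold cut-off only without 3-day replicate 1 or MetaICM replicate 1 (0.61 in each case).

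Per length, FOSL1 and FOSL2, which encodes FRA-2, made up most of the FOS family in every library. FOSL1 was 43.1% and 39.4% of the summed RPKM of the 4 family genes in control, 51.5% and 48.8% at 3 days, 50.7% and 50.8% at 6 days and 61.8% and 63.7% in MetaICM. FOS was 17.5% and 18.5% in control and 2.29% and 6.18% in MetaICM, with 12.3% to 14.6% in the 4 ICM libraries. The ratio of FOS to FOSL1 was 0.405 and 0.47 in control, 0.243 to 0.287 in the ICM libraries and 0.0372 and 0.0971 in MetaICM. The summed family level was 43.9 and 44.6 RPKM in control, 44.1 and 38.2 RPKM at 3 days, 49.0 and 57.7 RPKM at 6 days and 42.1 and 49.7 RPKM in MetaICM. The 6-day libraries were above those of control and 3 days, and MetaICM overlapped each of the other conditions.

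JUN (chromosome 1 from 59246463 to 59249719, minus strand), the principal DNA-binding partner in AP-1, was the most abundant of the 10. It gave 131 and 112 CPM in control, 232 and 206 CPM at 3 days, 227 and 274 CPM at 6 days and 146 and 162 CPM in MetaICM. All 4 ICM libraries were above the MetaICM libraries, which in turn were above control. JUN rose 2.05-fold at 6 days (log2FC 1.04 ± 0.13, edgeR adjusted p = 0.00014). It was lower in MetaICM than at 6 days (log2FC -0.70 ± 0.0855, edgeR adjusted p = 5.43e-07), a fold that dropped under the cut-off without 6-day replicate 2 (log2FC -0.56). MetaICM and control were not called apart (log2FC 0.33, edgeR adjusted p = 0.057), and neither were 6 and 3 days (log2FC 0.19, edgeR adjusted p = 0.203).

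JUNB (chromosome 19 from 12902300 to 12904129, plus strand), a relative of JUN that in many settings opposes it, was the one gene called between the ICM time points. Its levels were 35.8 and 30.8 CPM in control, 34.5 and 27.7 CPM at 3 days, 16.9 and 20.4 CPM at 6 days and 31.2 and 43.9 CPM in MetaICM. The 6-day libraries were below all 6 others, while control, 3 days and MetaICM overlapped. JUNB fell from 3 to 6 days by a log2FC of -0.75 ± 0.132 (edgeR adjusted p = 0.000441), which became -0.59 without 3-day replicate 1, just under the fold cut-off. It was also lower at 6 days than in control (log2FC -0.85 ± 0.15, edgeR adjusted p = 0.00124) and 2.01-fold higher in MetaICM than at 6 days (log2FC 1.01 ± 0.128, edgeR adjusted p = 1.07e-06).

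The balance within the JUN family moved accordingly. The ratio of JUN to JUNB per length was 2.05 and 2.04 in control, 3.78 and 4.19 at 3 days, 7.55 and 7.56 at 6 days and 2.64 and 2.08 in MetaICM. The replicates lay close together and only control and MetaICM came near each other. JUNB took 30.3% and 29.8% of the summed RPKM of JUN, JUNB and JUND in control, and 10.8% and 11.1% at 6 days. JUND, the family member that is usually expressed constitutively, stayed between 4.6% and 11.7% in all libraries.

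**Figure D3:**
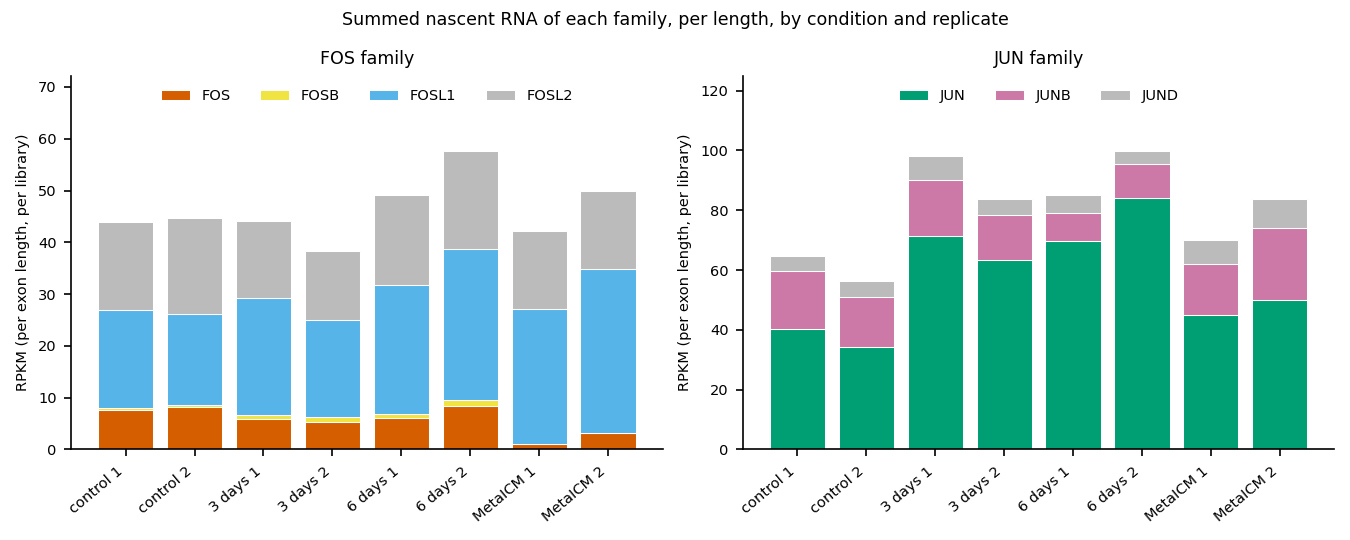
Summed level per exon length (RPKM, linear axis from 0) of the FOS family (left) and the JUN family (right) in each library, split by gene. FOSL1 and FOSL2 make up most of the FOS bars and the FOS segment is smallest in the MetaICM libraries, while the JUN segment is taller in the 4 ICM libraries than in the other 4 and the JUNB segment is smallest at 6 days.

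ATF3 (chromosome 1 from 212738676 to 212794119, plus strand), a stress-induced zipper protein that often represses its targets, had the largest increase of the 9 at 6 days. It gave 11.8 and 8.77 CPM in control, 40.6 and 30.8 CPM at 3 days, 46.0 and 48.5 CPM at 6 days and 9.92 and 11.9 CPM in MetaICM. The 4 ICM libraries were all at least 30.8 CPM, and the MetaICM libraries lay around the control ones. ATF3 rose 4.52-fold at 6 days (log2FC 2.18 ± 0.159, edgeR adjusted p = 2.76e-06). It was lower in MetaICM than at 6 days (log2FC -2.12 ± 0.102, edgeR adjusted p = 2.14e-13) and at 3 days (log2FC -1.72 ± 0.14, edgeR adjusted p = 1.94e-07). MetaICM and control were not called apart (log2FC 0.06, SE 0.188, edgeR adjusted p = 0.832), and the step from 3 to 6 days (log2FC 0.39, edgeR adjusted p = 0.0259) was under the fold cut-off.

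EGR1 (chromosome 5 from 137801168 to 137804992, plus strand), a zinc finger factor and the best studied target of serum response factor, was lower than control throughout. It gave 47.5 and 104 CPM in control, 40.9 and 32.6 CPM at 3 days, 22.2 and 28.6 CPM at 6 days and 16.8 and 39.7 CPM in MetaICM. All 6 other libraries were below the lower control library, but the controls differed 2.19-fold and the MetaICM libraries 2.36-fold. EGR1 fell at 6 days by a log2FC of -1.59 ± 0.3 (edgeR adjusted p = 0.00192), which was -0.90 without control replicate 2. In MetaICM its log2FC against control was -1.43 ± 0.382 (edgeR adjusted p = 0.0208), -0.74 without control replicate 2 and -2.17 without MetaICM replicate 2, and DESeq2 did not call it (adjusted p = 0.188). From 3 to 6 days the log2FC was -0.54 (edgeR adjusted p = 0.00666), under the fold cut-off but past it without 3-day replicate 2 (-0.68) or 6-day replicate 2 (-0.74). MetaICM was not called apart from 3 days (log2FC -0.38, edgeR adjusted p = 0.24) or from 6 days (log2FC 0.16, edgeR adjusted p = 0.566), and both signs depended on the MetaICM library kept. Without MetaICM replicate 2 it was called lower than at 3 days (log2FC -1.14), and without MetaICM replicate 1 it was called higher than at 6 days (log2FC 0.65).

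EGR3 (chromosome 8 from 22545172 to 22550993, minus strand), a zinc finger relative of EGR1, showed the largest drop of the 9. Its levels were 5.54 and 11.6 CPM in control, 1.07 and 0.665 CPM at 3 days, 0.646 and 0.425 CPM at 6 days and 0.298 and 1.14 CPM in MetaICM. Outside control it gave 6 to 26 counts per library, against 93 and 142 counts in control. EGR3 fell at 6 days by a log2FC of -3.98 ± 0.447 (edgeR adjusted p = 6.51e-05) and in MetaICM by -3.52 ± 0.484 (edgeR adjusted p = 0.00109). Without control replicate 2 these were -3.36 and -2.90, and without MetaICM replicates 1 and 2 the latter was -2.89 and -4.80. The conditions outside control were not called apart, and their low counts limited what could be detected. The ratio of EGR1 to EGR3 per length was 12.7 and 13.3 in control and 51.1 to 99.8 elsewhere.

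IER2 (chromosome 19 from 13261225 to 13265725, plus strand), a small nuclear protein of the early response, was lowest at 6 days. It gave 34.6 and 28.9 CPM in control, 25.0 and 21.1 CPM at 3 days, 19.7 and 19.1 CPM at 6 days and 27.6 and 37.8 CPM in MetaICM. The 6-day libraries were below all 6 others and differed 1.03-fold, and MetaICM overlapped control. IER2 fell at 6 days (log2FC -0.73 ± 0.14, edgeR adjusted p = 0.00221) and was higher in MetaICM than at 6 days (log2FC 0.75 ± 0.118, edgeR adjusted p = 1.58e-05), the latter under the fold cut-off without MetaICM replicate 2 (0.51). Its log2FC in MetaICM against 3 days was 0.50 (edgeR adjusted p = 0.00937), under the fold cut-off but past it without 3-day replicate 1 (0.61) or MetaICM replicate 1 (0.71). The ratio of ATF3 to IER2 per length was 0.298 and 0.265 in control, 1.42 and 1.28 at 3 days, 2.04 and 2.22 at 6 days and 0.314 and 0.275 in MetaICM.

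ARC (chromosome 8 from 143692410 to 143695840, minus strand, 3 exon blocks) was close to silent outside the 3-day libraries. It gave 1 and 0 counts in control, 69 and 30 at 3 days, 3 and 5 at 6 days and 0 and 0 in MetaICM. In CPM the 3-day libraries were at 3.21 and 1.99, and the 6-day libraries at 0.162 and 0.266. A floor of 3 counts corresponded to 0.131 to 0.246 CPM per library, so control and MetaICM were under the floor and 6 days lay at or just above it. Both 3-day libraries were above all 6 others.

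The summed ARC counts gave a ratio of 3 days to 6 days of 12.7, with a 95% counting interval from 6.18 to 30.1. Against MetaICM, with no count in either library, the 3-day level was at least 38.8-fold higher, taking 3 counts over the group as the floor. The 6-day level stood at 6.2 times control, from 8 counts against 1 (counting interval 0.832 to 275). The excess of 3 days over control, on which ARC was chosen, came to 78.5 times, from 99 counts against 1 (counting interval 13.8 to 3130). Both ratios to control used its 1 count as it stood, without the floor set for MetaICM. The 78.5 and the 38.8 therefore do not rank control against MetaICM. With 1 library left out, the log2FC of 3 days against control ran from 5.30 to 8.43. Such intervals and floors pool the libraries of a condition, cover counting error only and are not read as tests. ARC has no test here, because the libraries it was chosen on enter these ratios, and it did not pass the count filter between MetaICM and 6 days.

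At 3 days the level of ARC per length exceeded that of 31.0% of genes, against 97.3% for JUN and 83.0% for ATF3. The summed level of 8 neuron markers, chosen because ARC is known from neurons, was 18.0 to 18.1 CPM in control, 11.7 CPM in both 3-day libraries, 10.3 to 10.4 CPM at 6 days and 13.3 to 14.3 CPM in MetaICM, so it was not highest where ARC was. SYT1, at 4.81 to 11.3 CPM, and SNAP25, at 0.79 to 6.56 CPM, carried most of that sum, and each other marker reached at most 1.16 CPM. None of the 8 was at 0 over both libraries of a condition, but SLC17A7 fell to 0 in single libraries.

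The genes whose profile over the 8 libraries lay closest to that of ARC, by the mean absolute difference of centred log2 CPM among 16620 genes, were OR1J4 (0.565), FER1L4 (0.675), MMP1 (0.689), TRIM54 (0.693) and OR1N1 (0.712). MMP1, the interstitial collagenase, gave 75.4 and 41.8 CPM in control, 952 and 817 CPM at 3 days, 440 and 427 CPM at 6 days and 44.8 and 42.7 CPM in MetaICM. MMP1 was named for its closeness to ARC, so its peak at 3 days comes with that choice. For FOS the closest were MIR99AHG (0.299), LOC102724719 (0.319), NR4A1 (0.319), CATSPERE (0.328) and ATG9B (0.338). NR4A1, an orphan nuclear receptor of the same early class, gave 43.6 and 32.7 CPM in control and 7.89 and 14.4 CPM in MetaICM. The likeness of NR4A1 to FOS likewise comes with the choice. These distances are descriptions, and low counts limit them for ARC, OR1J4, TRIM54 and OR1N1.

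Replicates of the 10 genes differed more than those of most genes in some conditions. Over the 8 of them with at least 10 counts in every library, the median absolute log2 difference between replicates was 0.222 in control, 0.299 at 3 days, 0.27 at 6 days and 0.366 in MetaICM, beside 0.211, 0.163, 0.119 and 0.105 over 14109 genes. In MetaICM 7 of the 8 were higher in replicate 2, and so were 34 of 45 other immediate early genes, against 7468 of the 14109 genes. At 3 days 1 of the 8 was higher in replicate 2, as were 2 of those 45, against 5977 of the 14109 genes. The same counts were 2, 14 and 6485 in control, and 7, 26 and 7116 at 6 days. In control EGR1 differed more between replicates than 99.2% of genes did. In MetaICM the log2 difference was 1.62 for FOS and 1.24 for EGR1, and the smaller of these already exceeded that of 99.9% of genes.

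A list of 50 other immediate early genes was read beside them. It is 1 of 4 lists that share genes, with 136 entries for 125 distinct genes, so their counts are not separate observations. At 6 days against control 11 were called higher and 11 lower of 47 tested, each 23.4%, beside 13.3% and 17.2% of all genes, with a median log2FC of 0.05 against -0.0013 over all genes. NR4A2, a nuclear receptor related to NR4A1, rose (log2FC 1.72 ± 0.283, edgeR adjusted p = 0.000819), and so did DUSP4, a phosphatase of MAP kinases (1.39 ± 0.286, edgeR adjusted p = 0.00318). EGR2, another EGR factor, fell (-4.35 ± 0.843, edgeR adjusted p = 0.00224), as did TNFAIP3, an inhibitor of NF-κB signalling (-3.04 ± 0.343, edgeR adjusted p = 6.75e-05). EGR2 gave 0.833 and 2.87 CPM in control and 0.108 and 0.0531 CPM at 6 days. The 6-day values are under the floor of 3 counts (0.162 and 0.159 CPM), so the size of its fall is uncertain. The list split in both directions, as the 9 genes did.

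Between 3 and 6 days 3 of the 47 were called higher and 11 lower, 6.38% and 23.4%, beside 3.53% and 4.54% of all genes. SGK1, a serum-regulated kinase, fell from 157 ± 20.5 to 76.7 ± 4.05 CPM (SD, n = 2), with a log2FC of -1.04. KLF4, a zinc finger factor, had a log2FC of -1.16 (SE 0.266, edgeR adjusted p = 0.00442). NR4A2 went from 17.3 and 16.4 CPM at 3 days to 44.9 and 29.1 CPM at 6 days and DUSP6, an ERK phosphatase, from 49.7 ± 8.23 to 85.6 ± 4.46 CPM, and both were called higher.

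In MetaICM against control the list showed 5 higher and 7 lower of 47, or 10.6% and 14.9%, beside 7.41% and 8.99% of all genes. Against 3 days 6 were higher and 15 lower of 47, or 12.8% and 31.9%, beside 13.1% and 10.3% of all genes, so the share called higher was near that of all genes. Against 6 days there were 8 of each of 45, or 17.8%, beside 15.7% and 12.0% of all genes. PTGS2, the inducible cyclooxygenase, was the furthest down: it gave 90.0 and 29.8 CPM in control, 130 and 110 CPM at 3 days, 136 and 112 CPM at 6 days and 3.92 and 7.56 CPM in MetaICM. NR4A2 gave 14.7 and 7.21 CPM in control and 2.43 and 2.36 CPM in MetaICM. Both were called lower against each of the other conditions, as FOS and FOSB were. BTG2, an antiproliferative early gene, was called higher than control (log2FC 1.40 ± 0.201, edgeR adjusted p = 0.00137).

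**Figure D4:**
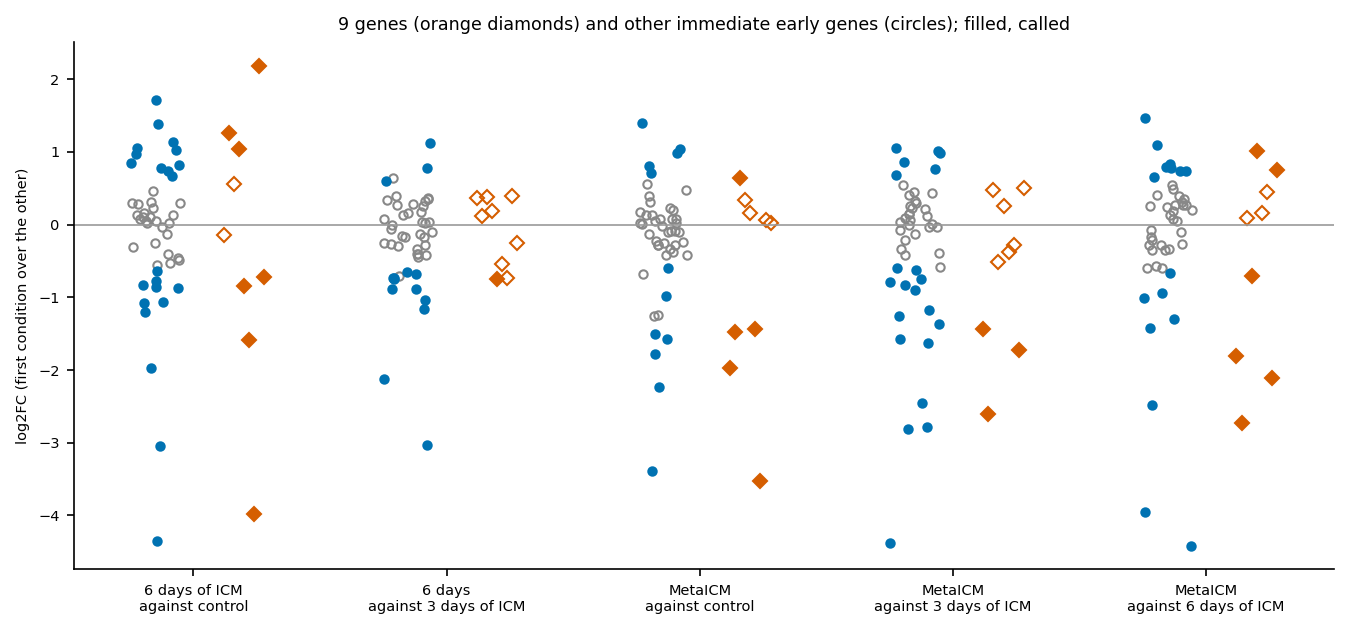
Log2FC (vertical axis, first condition over the other) of 9 of the genes (orange diamonds) and of the other immediate early genes that could be tested (circles) in 5 comparisons, filled where called. Both sets lie on both sides of 0 in each comparison, with 11 circles called higher and 11 lower at 6 days against control and 15 called lower in MetaICM against 3 days.

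For the other zipper proteins that AP-1 members can pair with, of 22 tested at 6 days against control, 5 were called higher and 2 lower, or 22.7% and 9.09%, beside 13.3% and 17.2% of all genes. Among them were MAFG, a small MAF protein (log2FC 1.26 ± 0.141, edgeR adjusted p = 6.44e-05), and JDP2, a repressor that dimerises with JUN (-1.68 ± 0.164, edgeR adjusted p = 2.27e-05). JDP2 gave 20.2 and 21.6 CPM in control, 12.2 and 13.2 CPM at 3 days, 6.95 and 6.16 CPM at 6 days and 19.7 and 17.9 CPM in MetaICM. From 3 to 6 days it was the one gene of 23 tested that was called, or 4.35% lower beside 4.54% of all genes. In MetaICM 1 of 23 was called higher than control, JUND, and 2 lower, or 4.35% and 8.7%, beside 7.41% and 8.99% of all genes, with CREB5, a CRE-binding factor, at a log2FC of -0.96 ± 0.127 (edgeR adjusted p = 0.000875). Against 3 days 1 was higher and 4 lower of 23, or 4.35% and 17.4%, beside 13.1% and 10.3% of all genes. Against 6 days 4 were higher and 3 lower, or 17.4% and 13.0%, near the 15.7% and 12.0% of all genes.

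Upstream, 6 of 40 genes of signalling to immediate early genes were called higher and 9 lower at 6 days against control, or 15.0% and 22.5%, beside 13.3% and 17.2% of all genes. MAP2K1, the kinase MEK1, rose (log2FC 1.09 ± 0.124, edgeR adjusted p = 7.16e-05) and PDGFRB, a receptor for platelet-derived growth factor, fell (-1.39 ± 0.11, edgeR adjusted p = 4.84e-06). SRF, the serum response factor, fell from 3 to 6 days (log2FC -0.88 ± 0.14, edgeR adjusted p = 0.000165), one of 2 calls there, the other being DUSP6 upwards, each 2.5% of the list beside 4.54% of all genes lower and 3.53% higher. SRF and DUSP6 are also on the list of other immediate early genes and were counted there. SRF gave 49.6 and 50.8 CPM in control, 52.6 and 35.6 CPM at 3 days, 23.7 and 24.5 CPM at 6 days and 44.5 and 59.0 CPM in MetaICM. In MetaICM 4 of the 40 were higher and 7 lower than control, or 10% and 17.5%, beside 7.41% and 8.99% of all genes. Against 3 days 4 were higher and 5 lower, or 10% and 12.5%, beside 13.1% and 10.3%. Against 6 days 9 were higher and 4 lower, or 22.5% and 10%, beside 15.7% and 12.0%, and PDGFRA and PDGFRB were among the higher and DUSP1 and DUSP5 among the lower.

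Of 21 neuronal activity genes related to ARC, 15 to 17 could be tested. At 6 days against control 2 were called higher and 3 lower, or 12.5% and 18.8%, near the 13.3% and 17.2% of all genes. NPAS4, a neuronal early factor, was called lower, at 1.01 and 2.13 CPM in control and at 0.0539 and 0 CPM at 6 days. From 3 to 6 days 1 was called higher, CAMK2D, and 3 lower, or 6.67% and 20%, beside 3.53% and 4.54% of all genes, with NPTX1, a neuronal pentraxin, going from 45.3 and 32.7 CPM at 3 days to 15.5 and 13.8 CPM at 6 days. NPTX1 was at 33.9 and 38.8 CPM in MetaICM, where ARC had no count. In MetaICM 1 of 17 was higher and 3 lower than control, or 5.88% and 17.6%, beside 7.41% and 8.99% of all genes. Against 3 days 2 were called lower, or 11.8%, beside 10.3% of all genes, and the others were not called, beside 13.1% called higher. Against 6 days 3 were higher and 3 lower, or 17.6% each, beside 15.7% and 12.0%.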

How the data were processed

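The authors deposited raw counts per gene for 8 factory RNA-Seq libraries, made with featureCounts 1.6.3 on RefSeq exons without regard to strand after STAR 2.6.0c alignment to GRCh37, per the file headers and the submitters' processing notes. Intronic counts and the RUVs and iRNAseq steps of the study were not used here. Members and related lists were chosen with earlier results of these data known. All 10 members lie at the same place in GENCODE v44lift37. Conditions were compared 2 at a time in edgeR 4.0.16 (R 4.3.3) with TMM scaling, filterByExpr (minimum count 10) and the quasi-likelihood test, which was tested on simulated data. Called genes of the lists could be named where libraries did not overlap and the higher group had at least 10 counts in each library. The 2 of these furthest up and down per list and comparison were eligible, and not all of them are named. The other genes named were the 5 nearest profiles and cell type markers. FOSL2 and JUND were added to complete their families after their values were seen. CPM used TMM-scaled totals. The SE of a log2FC was derived from the test, as its absolute value divided by the square root of the quasi-likelihood F statistic. Alternatives were DESeq2 1.42.0, other scalings, filters and thresholds, thinning, all libraries in a single fit, a replicate block, and each library left out. Promoter sequences came from RefSeq (GRCh38.p14). No per-sample column was left unused.

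No label says that a replicate number marks a shared culture. Deviations of same-numbered libraries correlated at -0.108 to 0.173 over 16584 genes. With only 2 pairs per comparison this cannot decide whether the numbers pair.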

Additional observations from a re-analysis of the deposited data

Results flagged for a closer look

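JUNB differed between the time points: its change against control was lower after 6 days than after 3 days by a log2FC of -0.75, the difference itself being tested as 6 against 3 days (edgeR adjusted p = 0.000441). Both 6-day libraries lay below both 3-day libraries. No group had more than 2 libraries, so single libraries far from the rest of their group could not be looked for.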

How the results depend on the processing

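Of 85 recounts of the called genes, 74 stayed within 1.5 times the count reported. With an adjusted p of 0.01, and also with DESeq2, the called genes numbered 3 at 3 days against control and 3 in MetaICM against control, where 5 were reported in each. Leaving out 1 library at a time gave 0 to 2 genes between 6 and 3 days, 3 to 5 in MetaICM against control and 3 to 5 in MetaICM against 3 days, the 0 being without 3-day replicate 1 and the 3 in MetaICM against control without MetaICM replicate 2. The replicate block gave the same counts in every comparison (5, 7, 1, 5, 3 and 6 genes), and crossing the numbers between MetaICM and 3 days, an alternative added after seeing the data, gave 3.

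Signs that reversed all belonged to log2FC values that were not called. Thinning to the smallest total gave ATF3 -0.014 in MetaICM against control. Leaving out 1 library gave, at 6 days, FOS -0.41 to 0.076 against control and FOSB -0.11 to 0.34 against 3 days. In MetaICM against control it gave JUNB -0.10 to 0.40, ATF3 -0.11 to 0.30 and IER2 -0.20 to 0.25. Against 3 days it gave JUNB -0.0079 to 0.49, EGR1 -1.14 to 0.11 and EGR3 -1.56 to 0.35. Against 6 days it gave FOSL1 -0.057 to 0.23, EGR1 -0.60 to 0.65 and EGR3 -0.83 to 1.09. The causes were not tested. No scaling moved the median log2FC of all genes by more than 0.0764. Depth limits ARC, EGR3 and FOSB, which gave under 30 counts in some libraries.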
